A study of Mus musculus with 8 samples.

Results

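The genes described here are the 2 REV-ERB receptors and 8 further genes of the circadian clock: Nr1d1, Nr1d2, Arntl, Clock, Per1, Per2, Per3, Cry1, Dbp and Nfil3. They were chosen by symbol and not by a cutoff on their values, but with earlier results of these data known. They are 10 of the 22829 genes listed, and all 10 had a mean above the minimum of 10 normalized counts that a gene needed to be tested. RNA seq gave their transcript levels in 4 samples of Th17 cells with WT-ROR-γt and 4 with the SUMOylation-defective K187R-ROR-γt, to which the small protein SUMO can no longer be attached at the mutated lysine. Both groups started from splenic CD4+ T cells of ROR-γt−/− mice, received ROR-γt by lentivirus and were cultured under Th17 conditions, so the knockout and the viral ROR-γt were shared by the controls. ROR-γt therefore came from a transgene in every sample, and knockout cells without it were not analysed here. The sources used here do not say whether the samples of a group came from separate animals or cultures, so the p-values measure the spread between these samples, which may be technical. The age of the mice and the hour at which cells were collected are not given in the sources used here.

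The circadian clock is a transcriptional feedback loop that runs in most cells, T cells included. BMAL1, the product of Arntl, pairs with CLOCK and activates Per, Cry, Nr1d1, Nr1d2 and Dbp through E-boxes, and the PER and CRY proteins then repress that pair. REV-ERBα and REV-ERBβ (Nr1d1 and Nr1d2) repress Arntl, Clock, Cry1 and Nfil3 through ROR response elements, the same DNA element that the ROR receptors, ROR-γt among them, use to activate transcription. In Th17 cells REV-ERBα is known to compete with ROR-γt at such elements. The comparison of WT-ROR-γt with K187R-ROR-γt asks whether transcription changes when ROR-γt cannot be SUMOylated, and for these genes it bears on the arm of the clock that ROR receptors share with the REV-ERBs.

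Reads counted on genes ranged from 52456804 to 74676721 per sample with WT-ROR-γt and from 54260345 to 67827288 with K187R-ROR-γt. A normalized count is the number of reads on a gene divided by the size factor of its sample, and 3 reads corresponded to 2.54 to 3.56 normalized counts, a floor for counting error only. The T cell gene Cd3e lay between 20844 and 27404 normalized counts in all 8 samples. The largest differences among samples did not follow the form of ROR-γt. A clustering of the samples over the 16939 tested genes outside the clock lists was cut into 3 sets, a number chosen for the analysis. The sets are samples grouped by the data and not by the study. WT replicates 1 and 3 fell with K187R replicate 1 (set 1), K187R replicates 2 and 3 fell with WT replicate 2 (set 2), and the samples numbered 4 formed set 3. Markers of other cells followed the sets only in part and were summed for each list. The 4 myeloid markers (Lyz2, Itgam, Adgre1, Csf1r), none of them at 0, summed to 19569.6 to 58917 normalized counts in WT and 34057 to 62028 in K187R. The 3 B cell markers summed to 165 to 789 and 190.3 to 927, and the 2 CD8 markers to 403 to 1025 and 387 to 1141. Within set 1 the myeloid sum was 34057 in K187R replicate 1, against 19574 and 19569.6 in WT replicates 1 and 3. For the same samples the B cell sum was 927 against 564 and 582. The CD8 sum was lower in K187R replicate 1, at 477 against 555 and 556. The 2 NK cell markers did not exceed 30.5 and the 2 fibroblast markers did not exceed 198, with Ncr1 and Col3a1 at 0 in some samples. In bulk RNA, fewer cells of a type and less transcript per cell cannot be told apart, and the part of other cells in the clock gene values was not tested.

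DNA around annotated start sites of these genes is shown first, because the elements through which the loop is wired can be read there. RefSeq promoter windows on GRCm38.p6, from 250 bases before a start site to 50 bases from it, were listed for 9 of the 10 genes, in 13 windows. Per2 is not among them. Both strands were searched for the ROR response element (TAGGTCA or TGGGTCA), the E-box (CACGTG), an E-box variant (CACGTT), the D-box (TTATGTAA or TTACGTAA) bound by DBP and NFIL3, and the cAMP response element (TGACGTCA). None of these words contains another. Capitals mark the matched word and the surrounding 11 bases on each side are in lower case. Each sequence is given on the strand of its gene, so AACGTG and TGACCTA are the same words read on the other strand.
Arntl, chr7:113207530-113207558, plus strand, ROR response element: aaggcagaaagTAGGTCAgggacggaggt
Nfil3, chr13:52981034-52981062, minus strand, ROR response element: gcgctcggaacTGACCTActaacacacat
Per1, chr11:69098772-69098799, plus strand, E-box: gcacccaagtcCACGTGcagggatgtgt
Cry1, chr10:85185098-85185125, minus strand, E-box: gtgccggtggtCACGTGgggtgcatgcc
Cry1, chr10:85185117-85185144, minus strand, E-box variant: cacacttcagaAACGTGaggtgccggtg
Nr1d1, chr11:98775389-98775416, minus strand, E-box variant: gcacagatctcAACGTGccggctgctgg
Per3, chr4:151044852-151044881, minus strand, D-box: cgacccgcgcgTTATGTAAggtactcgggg
Per3, chr4:151044805-151044834, minus strand, D-box: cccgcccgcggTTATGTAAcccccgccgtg

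The ROR response element TAGGTCA occurred in the windows of Arntl and Nfil3 only, and 2.61% of all 32851 promoter windows held it. Either word for this element, TAGGTCA or TGGGTCA, was in 6.45% of all windows and in 2 of the 13 windows of these genes. In Arntl it began at base 31 of the transcript from one of its start sites, and in Nfil3 it began 12 bases before the start. The E-box CACGTG was found in windows of Per1 (166 bases before a RefSeq start that, like the other RefSeq start of Per1, lies inside the GENCODE span of the gene given with its values) and Cry1 (60 bases before) and in 7.15% of all windows. The variant CACGTT was found in Nr1d1 (28 bases before) and Cry1 (79 bases before) and in 4.68% of all. The D-box TTATGTAA occurred at 2 places in the window of Per3, 205 and 158 bases before the start, and in 0.938% of all windows. No match stood in the windows of Clock, Dbp and Nr1d2 for any of these words. TGGGTCA (3.98% of all windows), TTACGTAA (0.119%) and TGACGTCA (1.79%) were in none of the 13 windows. A match is a description of the letters and not a measured binding site.

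**Figure D1:**
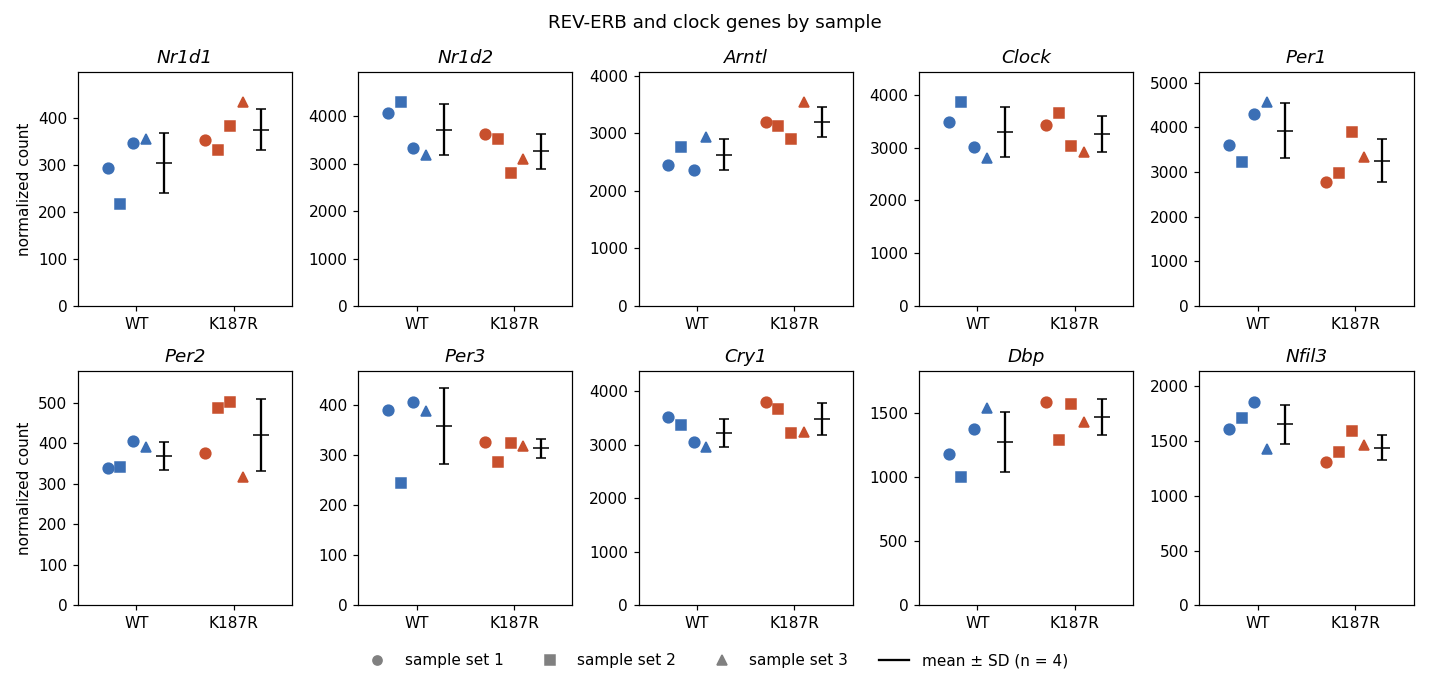
Normalized counts of the 10 clock genes in each sample, on linear axes that start at 0, with WT in blue and K187R in red, the shape of a point giving its sample set, and the mean ± SD (n = 4) beside each group. Arntl separates the groups except for K187R replicate 3, which lies below WT replicate 4, and for each of the 10 genes at least 1 sample of one group lies within the range of the other.

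None of the 10 clock genes passed the test between K187R and WT after adjustment, and Arntl came closest. With limma on log2(normalized count + 1), 0 of the 10 genes had an adjusted p-value under 0.05, as had 0 (0.0%) of the 16982 genes tested. At an unadjusted p-value under 0.05 there was 1 clock gene, Arntl, against 746 genes (4.39%) of all, or 467 (2.75%) in the higher direction, which is that of Arntl. With the group as the only term, Arntl was also the 1 clock gene below that value in edgeR and in DESeq2. Neither tool then called a clock gene after adjustment, with 0 of 16982 genes called by edgeR and 27 of 13970 by DESeq2. On the log2 scale 5 of the clock genes had a positive and 5 a negative difference. Their median difference was 0.05, against −0.01 over all genes, and their median absolute difference was 0.191, against 0.115. The groups did not overlap for 0 of the 10 genes, and for 417 (2.46%) of all. Replicates of these genes spread about as much as those of other genes, with a median residual SD of 0.203 log2 units against 0.220 over all genes, and 6 of the 10 were below the latter. With 4 samples against 4, the smallest exact two-sided permutation p is 0.0286.

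Arntl (ENSMUSG00000055116, GRCm38 chr7:113207465-113314126, plus strand) encodes BMAL1, the activating partner of CLOCK, and had the smallest p-value of the 10. Its normalized counts were 2455, 2758, 2360.4 and 2944 in WT replicates 1 to 4 and 3197, 3120.4, 2904 and 3536 in K187R replicates 1 to 4. All K187R samples were above WT replicates 1, 2 and 3, and the groups overlapped through WT replicate 4 and K187R replicate 3. The means were 2629 ± 269.6 (SD, n = 4) and 3189 ± 262 (SD, n = 4). The log2 fold change was 0.28 (standard error 0.095, 95% interval 0.067 to 0.49), which is 1.21-fold with an interval of 1.05 to 1.41. The adjusted p from limma was 0.921 and the exact permutation p was 0.0571. Arntl ranked 211 by p-value among the genes tested. Within the 3 sets of samples the difference was 0.41, 0.13 and 0.26 on the log2 scale. The summed myeloid markers also differed between these samples, at 19574, 48047.5, 19569.6 and 58917 normalized counts in WT and 34057, 41684, 45116 and 62028 in K187R. Both quantities were highest in K187R replicate 4 and lowest in WT replicate 3. Within set 2 they went opposite ways, since WT replicate 2 had the lowest Arntl and the highest myeloid sum of its set. That sum is mostly Lyz2, and the single markers differed. Lyz2 and Itgam were highest in WT replicate 2 within set 2. Adgre1 (648 against 795 and 863 in K187R replicates 2 and 3) and Csf1r (4220 against 4508 and 5074) were lowest there. Over all samples Adgre1 and Csf1r were highest in K187R replicate 3 and not in K187R replicate 4. The part of myeloid cells in the Arntl values was not tested.

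Clock (ENSMUSG00000029238, chr5:76209868-76304792, minus strand), the partner of BMAL1, had the smallest difference of the 10 genes. The values were 3485, 3855, 3016 and 2812 in WT and 3423, 3655, 3029 and 2912 in K187R, so the K187R samples lay inside the WT range. The log2 fold change was −0.01 (95% interval −0.27 to 0.25, adjusted p = 0.993 from limma, exact permutation p = 0.943), and its sign turned under quantile normalization and on leaving out single samples. In both groups Clock was lower in replicates 3 and 4 than in replicates 1 and 2.

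The Period genes, whose proteins repress BMAL1 and CLOCK, had differences of both signs, and none passed the test. Per1 (ENSMUSG00000020893, chr11:69095217-69109960, plus strand), the most abundant of them, had 3612, 3216, 4302 and 4558 normalized counts in WT and 2786, 2989, 3894 and 3347 in K187R. The groups overlapped, with K187R lower in sets 1 and 3, by −0.50 and −0.45 on the log2 scale, and close to WT in set 2 (0.09). The means were 3922 ± 617 and 3254 ± 486 (SD, n = 4 each), and the log2 difference was −0.27 (95% interval −0.58 to 0.041, adjusted p = 0.921 from limma, exact permutation p = 0.171).

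Per2 (ENSMUSG00000055866, chr1:91415982-91459324, minus strand) had 339, 340.3, 406 and 389.5 in WT and 376, 486, 502 and 316 in K187R. K187R held both the highest samples, replicates 2 and 3, and the lowest, replicate 4. The log2 fold change was 0.17 (95% interval −0.21 to 0.54, exact permutation p = 0.371), and the sets gave 0.02, 0.54 and −0.30. The value was 0.089 without K187R replicate 2, 0.073 without K187R replicate 3 and 0.30 without K187R replicate 4.

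Per3 (ENSMUSG00000028957, chr4:151003652-151044665, minus strand), which carried the 2 D-box words, had 391, 244, 407 and 389 in WT and 325, 286, 324 and 318 in K187R. WT replicate 2 was the lowest of all 8 samples, while the other WT samples were above every K187R sample. The difference was −0.16 on the log2 scale (95% interval −0.55 to 0.23, exact permutation p = 0.4). It was −0.34 without WT replicate 2, −0.091 without WT replicate 3 and −0.069 with the sample set in the model, and the sets gave −0.29, 0.32 and −0.29. In K187R the counts were close together, at 314 ± 18.4 (SD, n = 4), against 358 ± 76.1 (SD, n = 4) in WT.

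Cry1 (ENSMUSG00000020038, chr10:85131700-85185064, minus strand) encodes the cryptochrome that represses together with the PER proteins. Its normalized counts were 3507, 3369.7, 3052 and 2949.7 in WT and 3801, 3670.3, 3209.6 and 3226 in K187R. The groups overlapped widely, and K187R was above WT in 12 of the 16 pairs of samples. Its log2 fold change was 0.11 (95% interval −0.090 to 0.31, exact permutation p = 0.229), and 0.066 without K187R replicate 1 and 0.069 without WT replicate 4. With a residual SD of 0.122 log2 units, Cry1 and Arntl (0.133) were less variable between replicates than the median gene.

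Nr1d1 (ENSMUSG00000020889, chr11:98767932-98775333, minus strand) encodes REV-ERBα, the repressor that competes with ROR receptors for their element. Its normalized counts were 293, 216, 346 and 356 in WT and 351, 332, 382 and 432 in K187R. WT replicate 2 was the lowest and K187R replicate 4 the highest, a 1.998-fold span, and K187R replicates 1 and 2 lay within the WT range. The means were 303 ± 63.8 and 374 ± 43.7 (SD, n = 4 each). The log2 fold change of 0.32 was the largest of the 10 genes (95% interval −0.070 to 0.72, adjusted p = 0.921 from limma, exact permutation p = 0.143), and it was 0.17 without WT replicate 2. Sampling of reads alone would give an SD of 0.0777 log2 units at this depth, against a residual SD of 0.260 between replicates.

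Within each of the 3 sets the lowest K187R sample for Nr1d1 exceeded the highest WT sample, and the means differed by 0.14, 0.72 and 0.28 on the log2 scale. The same held for Arntl, so for 2 of the 10 genes, where 1519 of all genes (8.94%) were above WT in every set. For 0 of the 10 genes was K187R below WT in every set, against 837 (4.93%) of all. Arntl and Nr1d1 stand on opposite arms of the loop, since REV-ERBα is a repressor of Arntl. The 3′ end of Nr1d1 overlaps Thra, the gene of thyroid hormone receptor α on the other strand, over 263 bases (8.55% of the exonic bases of Nr1d1). Whether the counting used strand is not given in the sources used here, so reads of the shared part cannot be assigned. Thra had 1534 ± 355 normalized counts in WT and 1688 ± 202 in K187R (SD, n = 4 each), differing by 0.16 on the log2 scale.

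Nr1d2 (ENSMUSG00000021775, chr14:18204054-18239127, minus strand) encodes REV-ERBβ and had a difference of the opposite sign to that of Nr1d1. Its normalized counts were 4063, 4289, 3338 and 3182 in WT and 3614, 3519.6, 2811 and 3090.4 in K187R. K187R was lower than WT at each of the 4 replicate numbers, as it was for Per1, and it was higher at each for Arntl, Nr1d1 and Cry1. The share of all genes with such a pattern was not counted. The labels name no pairing by number, and the samples numbered 3 did not pair, with a correlation of −0.09 in their deviations from the group means. For Nr1d2 the groups overlapped, with K187R above WT in 4 of the 16 pairs of samples. On the log2 scale the difference was −0.19 (95% interval −0.46 to 0.088, exact permutation p = 0.229), and the sets gave −0.03, −0.45 and −0.04. It was −0.11 without WT replicate 2 and −0.12 without K187R replicate 3. WT replicate 2 had the highest Nr1d2 of all samples and the lowest Nr1d1.

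Dbp and Nfil3 are the clock outputs that meet at the D-box, DBP as an activator and NFIL3 as a repressor. Dbp (ENSMUSG00000059824, chr7:45705088-45710203, plus strand) had 1179.9, 1005, 1375 and 1544 normalized counts in WT and 1593, 1289.6, 1576 and 1431 in K187R. WT replicate 2 was again the lowest sample, and WT replicate 4 stood among the K187R values. K187R minus WT was 0.22 on the log2 scale (95% interval −0.092 to 0.53, exact permutation p = 0.2), and 0.11 without WT replicate 2. The sets gave 0.32, 0.50 and −0.11. Of the exonic bases of Dbp, 18.0% (539 bases) overlap Sphk2, a sphingosine kinase gene on the other strand. Sphk2 had 2431 ± 439 in WT and 2427 ± 395 in K187R (SD, n = 4 each).

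Nfil3 (ENSMUSG00000056749, chr13:52967209-52981073, minus strand), which held a ROR response element word like Arntl, differed in the opposite direction to it. Its normalized counts were 1607, 1710.3, 1859 and 1431 in WT and 1307, 1401, 1586 and 1461 in K187R. WT replicates 1 to 3 were above every K187R sample, and WT replicate 4 was below 2 of them. The means were 1652 ± 179.98 and 1439 ± 117 (SD, n = 4 each), with a log2 fold change of −0.20 (95% interval −0.43 to 0.033, exact permutation p = 0.114). Within sets the difference was −0.40, −0.20 and 0.03, and the K187R sample stood above the WT sample in 2 of the 16 pairs.

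**Figure D2:**
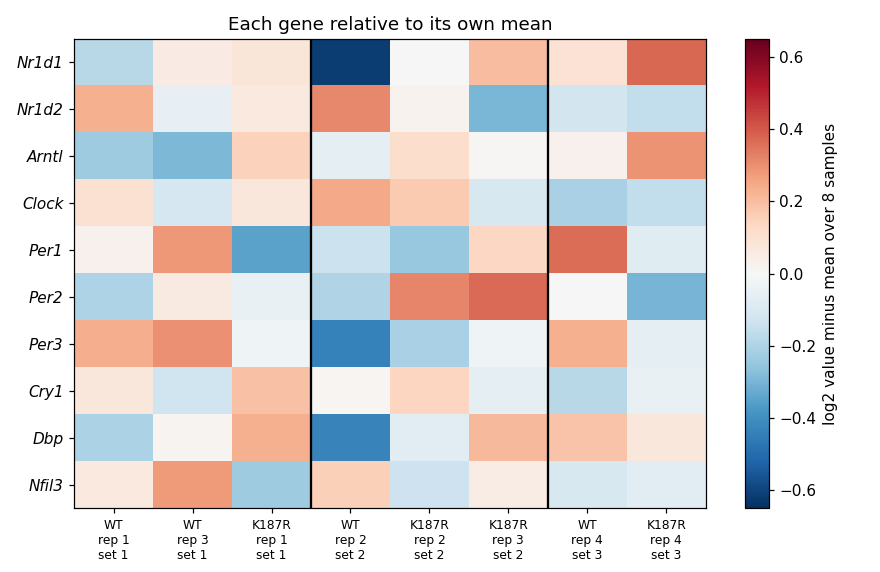
Log2 value of each clock gene in each sample minus its mean over the 8 samples, with black lines between the 3 sample sets. WT replicate 2, the first column of set 2, is the lowest sample for Nr1d1, Per3 and Dbp and the highest for Nr1d2 and Clock.

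The lowest and highest values of these genes were spread over several samples. WT replicate 2 was the lowest of the 8 samples for 3 genes (Nr1d1, Per3 and Dbp) and the highest for 2 (Nr1d2 and Clock). K187R replicate 4 was the lowest for Per2 and the highest for Nr1d1 and Arntl, while K187R replicate 1 was the lowest for Per1 and Nfil3 and the highest for Cry1 and Dbp. WT replicate 3 was the lowest for Arntl and the highest for Per3 and Nfil3. WT replicate 4 was the lowest for Clock and Cry1 and the highest for Per1. K187R replicate 3 was the lowest for Nr1d2 and the highest for Per2. WT replicate 1 and K187R replicate 2 were at neither end for any of the 10. Between the lowest and the highest sample the genes differed from 1.29-fold for Cry1 to 1.998-fold for Nr1d1. The samples fall into sets, so no correlation between genes was computed over all 8.

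**Figure D3:**
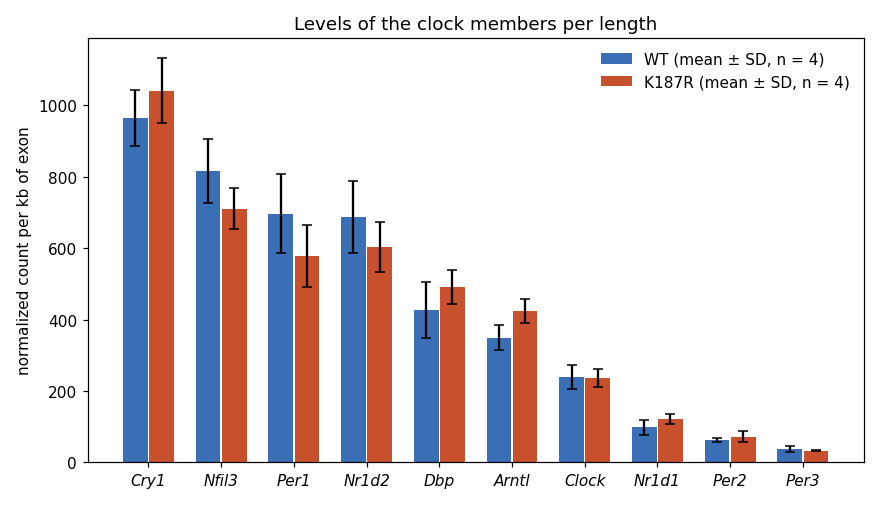
Normalized count per kb of exon for each clock gene, ordered by the WT mean, with bars for the mean and error bars for the SD of 4 samples per group on a linear axis that starts at 0. Cry1 is the highest and Per3 the lowest in both groups.

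The levels of the 10 genes spanned a wide range. Per kb of exon in WT, the mean normalized count was 964 ± 78.4 for Cry1, 815 ± 88.8 for Nfil3, 697 ± 109.7 for Per1, 687 ± 99.9 for Nr1d2 and 426 ± 78.3 for Dbp (SD, n = 4 each). Below these stood Arntl at 349 ± 35.8, Clock at 239.8 ± 34.2, Nr1d1 at 98.4 ± 20.7, Per2 at 62.9 ± 5.86 and Per3 at 37.2 ± 7.92. The sample ranges of neighbours overlapped for Cry1 and Nfil3, Nfil3 and Per1, Per1 and Nr1d2, and Dbp and Arntl. Differences between genes were not tested. The other neighbouring pairs had separate ranges. In K187R the levels per kb ran in the same order except that Nr1d2 (602) stood above Per1 (578), whose ranges overlapped. The K187R ranges of Cry1 and Nfil3 were separate, and those of Per1 and Dbp overlapped. REV-ERBβ transcript was thus more abundant per kb than REV-ERBα transcript in both groups, at 687 and 98.4 in WT and 602 and 122 in K187R.

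**Figure D4:**
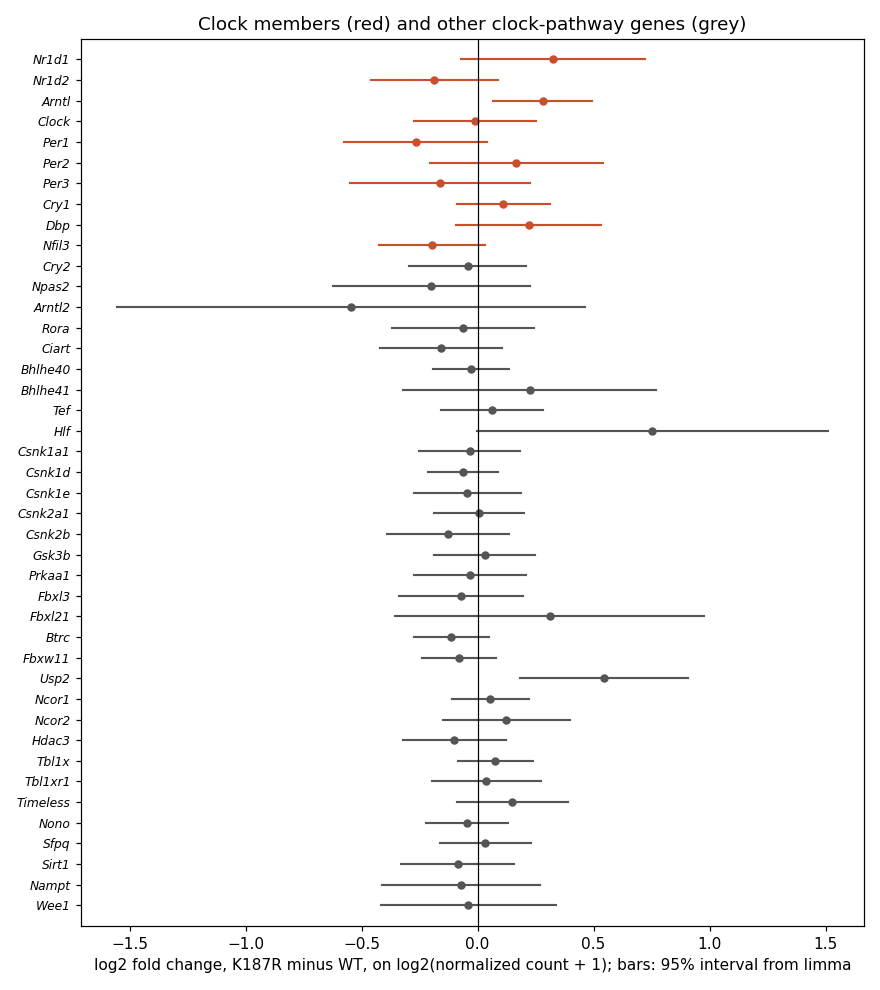
Log2 fold change, K187R minus WT on log2(normalized count + 1), of the 10 clock genes in red and of further clock-pathway genes in grey, with 95% intervals from limma. The intervals of Arntl and of Usp2 are above 0, and every other interval shown includes 0.

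Of 34 further genes of the clock pathway, 33 were listed and tested, and Rorb was not in the table. With limma 0 of the 33 had an adjusted p-value under 0.05. At an unadjusted p-value under 0.05 there was 1 higher gene, Usp2, and 0 lower, beside the 4.39% of all genes. The log2 difference was positive for 14 and negative for 19, and over all genes it was positive for 8224 of 16982. Its median was −0.03 against −0.01 over all genes. The median absolute difference was 0.073 against 0.115 over all genes. Of the 33, 28 were within 0.2 of 0, a share that was not counted over all genes. By role, the log2 difference was positive for 4 of the 5 genes of the NCOR–HDAC3 corepressor complex that REV-ERBs recruit, all 5 with intervals that include 0. It was positive for 4 of the 12 kinases, ligases and related enzymes that set the stability of clock proteins. Of the 6 other partners and outputs it was positive for 2.

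Usp2 (ENSMUSG00000032010), a deubiquitinase that acts on clock proteins, had 153, 157, 167 and 237 normalized counts in WT and 258, 244, 261 and 265 in K187R. The groups did not overlap, as for 2.46% of all genes, although WT replicate 4 came near the K187R samples. K187R exceeded WT by a log2 fold change of 0.54 (standard error 0.162, 95% interval 0.18 to 0.91), or 1.46-fold, with an adjusted p of 0.921 from limma and an exact permutation p of 0.0286, the smallest this design allows. The sets gave 0.68, 0.68 and 0.16. Usp2 was named for its p-value, and 4.15% of its exonic bases overlap genes on the other strand.

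Among the other loop factors, Rora, which activates Arntl in many tissues, gave −0.06, Cry2 −0.04, Npas2, which can replace CLOCK, −0.20, and Ciart, a repressor of the loop, −0.16 on the log2 scale. Arntl2, a paralog of Arntl at low counts, gave −0.55 with a 95% interval from −1.55 to 0.46. The E-box repressors Bhlhe40 and Bhlhe41 gave −0.03 and 0.23, where 19.0% of the exonic bases of Bhlhe41 overlap another gene on the other strand.

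Tef and Hlf, the relatives of Dbp that bind the same D-box, had log2 fold changes of 0.06 and 0.75. Hlf had 76.0, 227, 79.5 and 93.2 normalized counts in WT and 159, 206, 217 and 148 in K187R. WT replicates 1, 3 and 4 were below every K187R sample, and WT replicate 2 was above them all. The 95% interval of the Hlf difference was −0.0034 to 1.51 and its exact permutation p was 0.143.

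The genes whose log2 values, centred on their own mean, lay closest to those of Nr1d1 over the 8 samples were Furin, Lingo4 and Ckb, at root mean square differences of 0.0904, 0.103 and 0.108, where Nr1d1 itself varied by 0.277 about its mean. Dbp was at rank 29 in that order, at 0.143. For Dbp, which varied by 0.216, the closest were Trmt61a, Nol6 and Abca2, at 0.0401, 0.0483 and 0.0564, and Nr1d1 was at rank 445. These are descriptions over 8 samples that share their sets.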

How the data were processed

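RNA seq covered 8 samples, 4 per group, with groups and replicate numbers taken from the labels. Per the paper's methods, the authors used Cutadapt for trimming, HiSat2 for alignment to GRCm38 and featureCounts for read counts per gene of GENCODE M15. The versions of these tools and the strand setting are not given in the sources used here. What was deposited is a normalized signal for each gene: its reads divided by the DESeq2 size factor of the sample (0.842 to 1.18). All values (100%) were whole multiples of 1 read to within 0.1 read, so the reads could be recovered, and 0 columns lacked a sample.

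The main test was limma 3.58.1 (lmFit, eBayes with a trend, R 4.3.3) on log2(value + 1) over 16982 genes (mean of 10 or more normalized counts), with Benjamini-Hochberg adjustment at 0.05. A fold change on this scale understates that of low genes. Single genes were also tested by exact two-sided permutation over the 70 regroupings of the samples. Alternatives in limma changed 1 choice at a time: the pseudocount (0.5 or 5), the filter (none, or a mean of 50), TMM scaling, quantile normalization, no trend, a replicate block, the sample set as a factor, and each sample left out. The fits of edgeR 4.0.16 and DESeq2 1.42.0 on the recovered reads changed more than the test. With edgeR the scaling was TMM. DESeq2 was run without the filter and gave an adjusted p-value for 13970 genes. In 4 further fits edgeR or DESeq2 was combined with the replicate block or with the sample set. The mean of the within-set differences was taken for single genes. The fits were also run on simulated counts of independent samples without sets, which does not show how they perform on samples that fall into sets. Intervals are 95% intervals.

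The members and lists were chosen with earlier results of these data known. The text names the 10 members, loop factors and relatives (1 is not reported here), any listed clock gene with an unadjusted limma p under 0.05, genes whose exons overlap over 5% of those of a member on the other strand, and the 3 genes closest to Nr1d1 and to Dbp. Coordinates and exon lengths are from GENCODE M21, used in place of M15. Python 3.11.15 was used for the rest.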

Additional observations from a re-analysis of the deposited data

Results flagged for a closer look

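Among the groups of 4 samples, a sample stood far from the other 3 of its group for 3 genes, where 58 groups were examined and chance alone gives about 1 in 20. Per3 was at 244 normalized counts in WT replicate 2, with the other WT samples at 389 to 407. Hlf was at 227 in WT replicate 2, with the others at 76.0 to 93.2. Usp2 was at 237 in WT replicate 4, with the others at 153 to 167. WT replicate 2 shares its sample set with K187R replicates 2 and 3, which had 286 and 324 for Per3 and 206 and 217 for Hlf. WT replicate 4 shares its set with K187R replicate 4, which had 265 for Usp2.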

How the results depend on the processing

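Of the 10 clock genes, 9 kept the direction of their difference under all 24 alternatives, with log2 fold changes of 0.23 to 0.34 for Arntl, 0.17 to 0.41 for Nr1d1, −0.26 to −0.11 for Nr1d2 and −0.36 to −0.19 for Per1. Clock changed sign under 5 of the 24, with 0.0065 under quantile normalization and −0.084 to 0.068 when single samples were left out. In limma the changes of filter, the fit without a trend and the replicate block leave the estimate itself as it was. Those alternatives could therefore not turn a sign, and the share of all genes that kept their direction was not counted. The number of all genes called, 0 with limma, was 27 of 13970 with DESeq2. It was 1 with the sample set as a factor in limma and 1 in edgeR, and 143 of 13977 with it in DESeq2. Leaving out single samples in limma gave 0 to 4 (4 without WT replicate 4). Samples with the same replicate number correlated in their deviations from the group means at 0.59, 0.66, −0.09 and 0.63 for numbers 1 to 4, so number 3 did not pair its samples. With the replicate block 0 genes were called in limma and 0 in edgeR. At an unadjusted p under 0.05 limma with the block had 2046 of 16982 genes. Of the clock genes 5 were among them, Nr1d1, Per1, Nr1d2, Arntl and Nfil3. In edgeR with the block it was 1930 genes, with the same 5 and Cry1 among them. DESeq2 with the replicate block called 175 of 13534 genes (1.29%), 1 clock gene among them, Arntl at an adjusted p of 0.0203. Over all alternatives the adjusted p of Arntl ranged from 0.0203 to 0.9999.

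Among the other named genes, Sphk2 (0.0005) turned to −0.0092 with the sample set in limma, −0.0026 with DESeq2, −0.0077 and −0.0081 with the sample set in edgeR and DESeq2, and −0.083 to 0.10 when single samples were left out. The same leave-one-out fits gave −0.18 to 0.0025 for Rora, −0.11 to 0.038 for Cry2 and −0.070 to 0.0090 for Bhlhe40, whose differences are near 0. They also moved Npas2 (−0.34 to −0.059), Arntl2 (−0.88 to −0.24), Bhlhe41 (0.093 to 0.45), Tef (0.011 to 0.12), Ciart (−0.22 to −0.094) and Thra (0.076 to 0.30) by over 1.5 times, and with the sample set in limma Npas2 was −0.082, Arntl2 −0.25, Bhlhe41 0.14 and Tef 0.010. The genes closest to Nr1d1 and to Dbp moved as well. Without WT replicate 2, Furin fell from 0.28 to 0.15, Lingo4 from 0.27 to 0.14 and Ckb from 0.19 to 0.020. In the same fit Trmt61a fell from 0.17 to 0.088, Nol6 from 0.18 to 0.083 and Abca2 from 0.13 to 0.030. The causes of these changes were not tested. Nr1d1, Per2 and Per3 had the fewest reads of the 10, and counting error was largest for them. It came to an SD of 0.0777, 0.0724 and 0.0781 log2 units, below their residual SDs of 0.260, 0.243 and 0.253 between replicates.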
